A study of Mus musculus with 2 samples.

Results

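Digital gene expression (DGE) tag profiling was examined for 10 mouse genes of mesothelium and simple epithelium: the uroplakin genes *Upk3b* and *Upk1b*, the mesothelin gene *Msln*, the keratin genes *Krt7*, *Krt8*, *Krt18* and *Krt19*, and *Podxl*, *Efemp1* and *Gpm6a*. They are 10 of the 14450 genes with at least 1 unambiguous sense tag in either library, and of 55450 genes in the reference annotation. The genes were selected on the same libraries as genes high in GC-1spg and low in GC-2spd (ts), so their own ratios are given as a description and not as a test.

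The study compared the germ cell lines GC-1spg and GC-2spd (ts), with 1 library from each. GC-1spg was derived from type B spermatogonia of mice aged 10 days and was transformed with pSV3-neo, a plasmid that encodes SV40 large T antigen. GC-2spd (ts) was derived from spermatocytes of mice aged 6 weeks and was transformed with SV40 large T antigen. Both lines were kept in DMEM to which 10% FBS was added, with bicarbonate at 1.5 g/L, and no other treatment was given. Each line is thus a transformed culture from another donor age and another transformation, and none of these can be told apart from the stage the line stands for.

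Mesothelium is the flat cell layer that lines the body cavities and covers the organs in them, including the testis. It makes keratin filaments and surface glycoproteins such as mesothelin and podocalyxin, and uroplakin 3b and uroplakin 1b are found there as well as in urothelium. Keratin filaments are obligate heteropolymers of a type II and a type I keratin, with *Krt8* and *Krt18* as the usual pair of simple epithelia and *Krt7* and *Krt19* as further type II and type I members.

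A DGE tag is the CATG recognised by the enzyme *Nla*III and the 17 bases that follow it, taken from the CATG site nearest the poly(A) tail of a transcript. A transcript is therefore counted about once whatever its length, so levels of different genes can be compared without scaling by length. A level is given as the number of unambiguous sense tags and as TPM, which here means tags per 1000000 clean tags. The main tag of each gene is printed below, 5′ to 3′, since it is the molecule that was counted; for *Krt18* it is shared with a pseudogene, and for *Krt7* a tag shared with many genes is left out. Capitals mark the *Nla*III site, and positions and annotation are those of GRCm38.
Upk3b, chr5:136045241-136045261, plus strand, 3′ UTR, exon 6: CATGtcccacggggcttgtct
Upk1b, chr16:38773303-38773323, minus strand, 3′ UTR, exon 8: CATGccagctattcaaacaag
Msln, chr17:25749474-25749494, minus strand, coding sequence, exon 14: CATGgacatagccactttcaa
Krt7, chr15:101427722-101427742, plus strand, 3′ UTR, exon 9: CATGtccctgtcccgagcctg
Krt8, chr15:101997677-101997697, minus strand, coding sequence, exon 8: CATGagcattcatacgaagac
Krt18, chr15:102031871-102031891, plus strand, coding sequence, exon 7: CATGcaaactgtgcagaagac
Krt19, chr11:100140998-100141018, minus strand, coding sequence, exon 6: CATGgacatcaagtccaggct
Podxl, chr6:31519894-31519914, minus strand, 3′ UTR, exon 8: CATGtggtccgaggtgtaaat
Efemp1, chr11:28926655-28926675, plus strand, 3′ UTR, exon 11: CATGaagatcaagaaggaggg
Gpm6a, chr8:55060733-55060753, plus strand, 3′ UTR, exon 7: CATGgagtgctttgtagcagg

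The libraries held 5072149 (GC-1spg) and 4726808 (GC-2spd (ts)) clean tags, so 1 copy equalled 0.197 and 0.212 TPM. Tags with a single copy had been removed before deposit, and a gene with 0 tags is a gene with no listed tag. Over all genes, 7.84% were called lower and 11.7% were called higher in GC-2spd (ts), which is 1133 and 1684 of the 14450 genes. These shares are the background for every count of called genes in a list below. A call needs an FDR of at most 0.001 in the Audic-Claverie test on the counts of the 2 libraries, and a log2 ratio of 1 or more in size. With 1 library per line such a call compares the libraries and has no replicate check, and fewer cells of a type and less RNA per cell cannot be told apart. Of the 20 germ cell markers examined, 17 had 0 unambiguous tags in both libraries, among them *Ddx4* and *Dazl*, which define germ cells, so the data do not show the germ cell identity that the labels give to both lines.

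All of the 10 genes had more tags in GC-1spg than in GC-2spd (ts). Together they had 8976 tags (1770 TPM) in GC-1spg against 164 tags (34.7 TPM) in GC-2spd (ts), a 51.0-fold difference (95% interval 43.7 to 59.9, counting error only). By the rule used for all genes 8 of them were called lower in GC-2spd (ts), none was called higher, and *Krt7* and *Krt8* were not called. The background for that direction is the 7.84% given above, and nothing is read from the comparison because the genes were selected for this direction. For 6 genes GC-2spd (ts) had 0 tags. For the 4 genes with tags in both libraries the median log2 ratio was −6.48, beside 0.16 over the 11373 genes with tags in both.

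**Figure D1:**
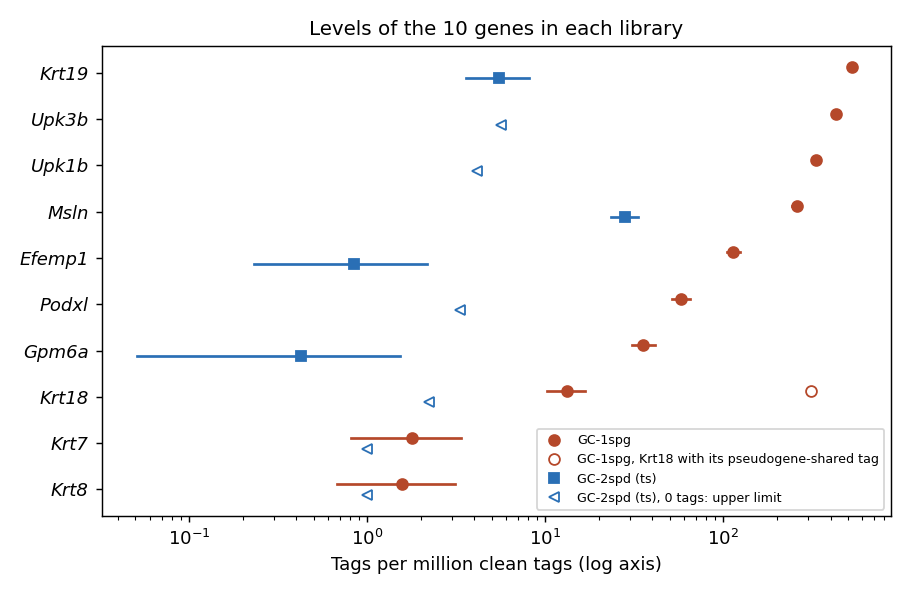
Levels of the 10 genes in tags per 1000000 clean tags (TPM) on a log axis, with exact Poisson 95% intervals as bars where they are wider than the symbol. Circles are GC-1spg and squares GC-2spd (ts), open triangles mark the upper limit where GC-2spd (ts) had 0 tags, and the open circle adds to *Krt18* the tag it shares with a pseudogene. All filled circles lie to the right of the GC-2spd (ts) symbols, and for *Krt7* and *Krt8* the interval reaches below the limit.

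*Upk3b* encodes uroplakin 3b, a membrane protein with 1 transmembrane segment that pairs with a tetraspan uroplakin. It had 2187 tags (431 TPM) in GC-1spg, which ranked 141st among the genes of that library, and 0 in GC-2spd (ts). With the limit that 0 listed tags allow, and the GC-1spg level taken as counted, its level was at least 76.4-fold higher in GC-1spg. Its main tag, in the 3′ UTR, had 2042 copies, or 93.4% of the copies of the gene (exact binomial 95% interval 92.2 to 94.4). It is the 5th CATG site counted from the annotated end of the longest transcript and lies 1247 bases before that end. The next poly(A) signal (AATAAA or ATTAAA) starts 41 bases after the start of the tag. The site nearest the annotated end, 248 bases before it, had 10 copies. Nearly all *Upk3b* tags therefore came from an inner site of the annotated transcript, and no other site of the gene had more than 31 copies.

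*Upk1b* encodes uroplakin 1b, a tetraspanin and the usual partner of uroplakin 3 proteins. It had 1677 tags (331 TPM) in GC-1spg, rank 209, and 0 in GC-2spd (ts), which makes it at least 80.4-fold higher in GC-1spg. Its tags fell at 2 main sites of exon 8. The tag printed above, in the 3′ UTR and nearest the annotated end, had 1079 copies (64.3% of the gene). A tag in the coding sequence, at the 4th site and 942 bases before the end, had 540 copies (32.2%) and read as follows.
Upk1b, 4th site: CATGttctactggagcagaat
The other 2 sites between them had 22 and 14 copies, so the inner tag stood well above its neighbours. The next poly(A) signal after it starts 921 bases downstream. The other uroplakin genes had few tags or none. *Upk1a*, the tetraspan partner of uroplakin 2 in urothelium, had 11 tags in GC-1spg against 4 in GC-2spd (ts) and was not called, while *Upk2*, *Upk3a* and *Upk3bl* had 0 in both libraries.

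*Msln* encodes mesothelin, a GPI-anchored surface glycoprotein whose precursor also yields megakaryocyte potentiating factor. It was the gene of the 10 with the most tags in GC-2spd (ts), with 1310 tags (258 TPM, rank 314) in GC-1spg against 132 tags (27.9 TPM, rank 4369) in GC-2spd (ts). Its level was 9.25-fold higher in GC-1spg (95% interval 7.73 to 11.1). The main tag lies in the coding sequence in exon 14, is the nearest to the annotated end, and had 1217 copies in GC-1spg against 123 in GC-2spd (ts). Inner tags in exon 10 and exon 6 had 44 and 36 copies in GC-1spg against 5 and 4 in GC-2spd (ts). The difference between the libraries was thus of similar size at each of the 3 sites. *Mslnl*, the mesothelin-like gene, had 3 tags in GC-1spg against 0 in GC-2spd (ts). The related genes *Strc* and *Otoa* had none.

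The 4 keratins were unequal. *Krt19*, which encodes the smallest type I keratin and lacks the usual tail domain, had the highest level of the 10 genes. It had 2666 tags (526 TPM, rank 109) in GC-1spg against 26 tags (5.50 TPM) in GC-2spd (ts), and was 95.6-fold higher in GC-1spg (95% interval 65.1 to 147). The tag in its coding sequence in exon 6 held 2446 of the copies in GC-1spg and all 26 in GC-2spd (ts).

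*Krt18*, the type I partner of keratin 8, had 67 unambiguous tags (13.2 TPM) in GC-1spg against 0 in GC-2spd (ts), so its level was higher in GC-1spg by at least 5.94-fold. This count leaves out its main tag, which had 1509 copies in GC-1spg (1449 exact and 60 with 1 mismatch) against 0 in GC-2spd (ts). That tag is identical in the processed pseudogene *Gm5200* (chr13:117457836-117459075, minus strand, where the tag lies at chr13:117457903-117457923). Of the 9 reference tags of *Gm5200* 2 are shared with *Krt18*, and the tags found in *Gm5200* alone had 0 copies in both libraries. With pseudogenes left out of the reference, *Krt18* had 1576 tags (311 TPM) in GC-1spg, rank 290, and 0 in GC-2spd (ts). The *Krt18* level in GC-1spg thus depends on the treatment of that tag, and GC-2spd (ts) had no copy in either case.

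*Gm5200* differs from *Krt18* at 6 of the 8 *Krt18* sites, and 5 of these 6 had *Krt18* copies in GC-1spg, while the 5th site had 0. The 3 differing sites where the pseudogene keeps its *Nla*III site and *Krt18* had copies are shown, because they separate the gene from its copy. Capitals here mark the differing bases, and positions are counted from 1 at the 5′ end of the *Krt18* tag.
Krt18, 2nd site: catgaaaaacCagaacatcaa
Gm5200: catgaaaaacTagaacatcaa
Krt18, 4th site: catgaAgaggaagtccaaggt
Gm5200: catgaGgaggaagtccaaggt
Krt18, 6th site: catggaCtccGCaAggtggta
Gm5200: catggaGtccTTaTggtggta
The differences are C11T at the 2nd site, A6G at the 4th site and C7G, G11T, C12T and A14T at the 6th site. In GC-1spg the *Krt18* sequences had 28, 2 and 16 copies and the *Gm5200* sequences 0. The 3rd site (G4A) had 6 *Krt18* copies, but the pseudogene lacks the *Nla*III site there and cannot yield that tag. The 8th site had 15 *Krt18* copies and lies 2 base edits from the closest stretch of the pseudogene.

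*Krt7* and *Krt8*, the type II keratins of the group, had few tags. *Krt8* had 8 tags in GC-1spg (1.58 TPM, exact Poisson 95% interval 0.681 to 3.11), and GC-2spd (ts) had 0, which allows up to 1.004 TPM. All 8 came from the site nearest the annotated end, in the coding sequence in exon 8, and the other 10 of its 11 reference sites had 0 copies. The pseudogene *Krt8-ps* shares 5 of these reference tags, and all 5 had 0 copies in both libraries, so sharing with it removed no copy from the count. *Krt7* had 9 tags in GC-1spg (1.77 TPM, 0.811 to 3.37) and 0 in the other library, with the same limit. No lower bound on a fold is given for either gene, since both intervals reach below that limit. The 9 *Krt7* tags came from the 3′ UTR, 2592 bases before the annotated end. The next poly(A) signal starts 50 bases after the start of that tag. The *Krt7* site nearest the annotated end carries a repeat tag that matched 791 genes over both strands. In sense it matched 9 pseudogenes, such as *Mdm4-ps*, and it had 9818 copies in GC-1spg against 5567 in GC-2spd (ts). It read as follows, and its copies were assigned to no gene.
Krt7, shared repeat tag: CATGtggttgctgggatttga

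By unambiguous tags, the type I member of each pair in GC-1spg was far above the type II member. *Krt18* had 8.38 tags for each *Krt8* tag by unambiguous tags (95% interval 4.02 to 20.2) and 197 (99.7 to 457) with pseudogenes left out. *Krt19* had 296 tags for each *Krt7* tag (156 to 649). Counting the repeat tag in full for *Krt7* turns that ratio around, to 0.270 *Krt19* tags per *Krt7* tag, since 9870 tags then stand under *Krt7*. In GC-2spd (ts) *Krt7*, *Krt8* and *Krt18* all had 0 tags and no ratio was formed.

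The wider keratin family was counted with and without the 4 selected keratins. Of 53 keratin genes in the reference 13 had tags, namely 8 of 28 type I genes and 5 of 25 type II genes. Type I genes had 3950 tags in GC-1spg against 44 in GC-2spd (ts), or 5459 and 44 with pseudogenes left out, while type II genes had 184 and 61. The type I sums, unlike the type II sums, rest largely on the selected keratins. Without them, 26 type I genes had 1217 tags in GC-1spg, nearly all from *Krt14*, and 18 in GC-2spd (ts), and 23 type II genes had 167 and 61, so in GC-2spd (ts) type II tags outnumbered type I tags with or without the selected genes. Most type II tags belonged to *Krt80*, with 150 in GC-1spg against 61 in GC-2spd (ts) and a log2 ratio of −1.20 that was called lower. *Krt14*, the type I keratin of basal layers of stratified epithelia, had 1199 tags (236 TPM) and 5 tags (1.06 TPM) and was called lower at a log2 ratio of −7.80. *Krt5*, the usual type II partner of *Krt14*, had 0 in both libraries. *Krt76* had 15 tags and 0, and was called lower. These counts are of tags and do not bear on keratin protein.

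**Figure D2:**
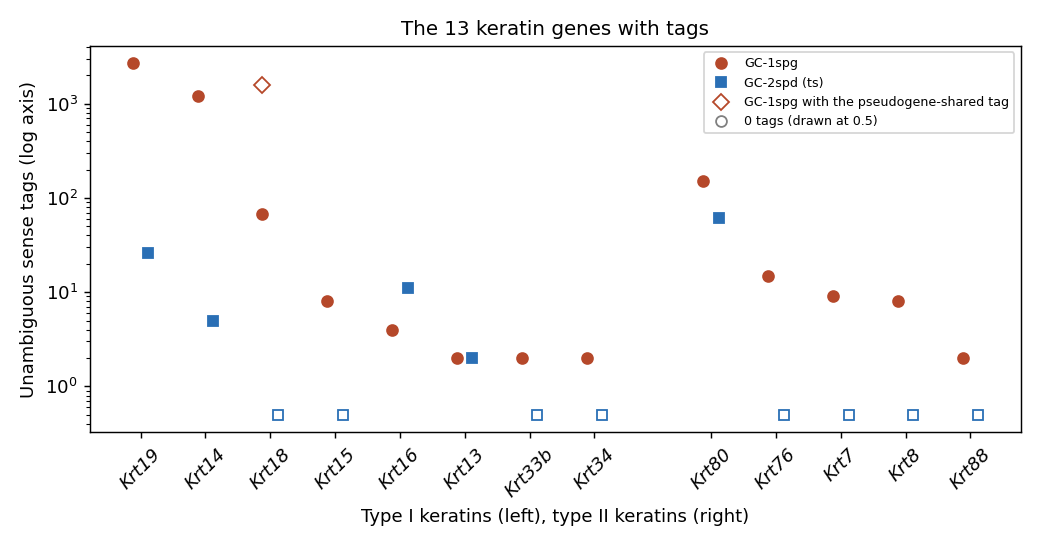
Unambiguous sense tags (log axis) of the 13 keratin genes with tags, type I on the left and type II on the right. Circles are GC-1spg and squares GC-2spd (ts), open squares at 0.5 stand for 0 tags, and the diamond adds the pseudogene-shared tag to *Krt18*. *Krt19*, *Krt14* and *Krt18* reach 1199 tags or more in GC-1spg, the last with its shared tag, while no type II keratin exceeds 150.

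*Podxl* encodes podocalyxin, a sialomucin of the CD34 family on mesothelium, podocytes and endothelium. It had 295 tags (58.2 TPM) in GC-1spg against 0 in GC-2spd (ts), so its level was higher in GC-1spg by at least 17.5-fold. Its main 3′ UTR tag in exon 8 held 258 copies. Its relative *Cd34* went the other way, with 62 tags in GC-1spg against 153 in GC-2spd (ts) and a log2 ratio of 1.40 called higher. Podocalyxin is tied to actin through ezrin and the adaptor NHERF1. Of 7 genes on a list of such linkers, all with tags, 2 were called lower, 1 was called higher and 4 were not called, and the median log2 ratio was 0.12. *Ezr* had 1701 and 764 tags (log2 −1.05) and *Slc9a3r1*, which encodes NHERF1, 1045 and 167 tags (log2 −2.54), both called lower. The related linker gene *Rdx* (radixin) had 903 and 2025 tags (log2 1.27) and was called higher.

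*Efemp1* encodes fibulin-3, a secreted glycoprotein of the extracellular matrix. It had 577 tags (114 TPM) in GC-1spg against 4 tags (0.846 TPM) in GC-2spd (ts), a 134-fold difference whose interval runs from 52.2 to 495 because of the low count. The 3′ UTR tag in exon 11 held 564 of the copies, and all 4 in GC-2spd (ts). The other fibulin genes divided. *Fbln1* was called lower, with 450 and 16 tags (log2 −4.71). *Fbln2*, with 347 and 1968 tags (log2 2.61), and *Fbln5*, with 47 and 208 tags (log2 2.25), were called higher. *Efemp2* had 308 and 357 tags (log2 0.31) and was not called, nor were *Fbln7* (0 and 3 tags), *Hmcn1* (2 and 0) and *Hmcn2* (15 and 5).

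*Gpm6a* encodes a four-pass membrane glycoprotein of the proteolipid family, best known in neurons. It had 180 tags (35.5 TPM) in GC-1spg against 2 tags (0.423 TPM) in GC-2spd (ts), an 83.9-fold difference with an interval from 22.9 to 698. The 3′ UTR tag in exon 7 held 171 of the copies. *Gpm6b* had 10 and 2 tags and was not called. Of 8 neuronal markers examined 4 had 0 unambiguous tags in both libraries, and none was called lower, beside 7.84% of all genes with tags. *Tubb3*, *Stmn2* and *Map2* were called higher, beside 11.7% of all genes with tags. They had 8 and 33, 0 and 20, and 76 and 181 tags in GC-1spg and GC-2spd (ts).

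In GC-1spg the order of levels was *Krt19*, *Upk3b*, *Upk1b*, *Msln*, *Efemp1*, *Podxl*, *Gpm6a*, *Krt18*, *Krt7* and *Krt8*. Each neighbour in this order differed from the next beyond counting error except *Krt7* and *Krt8*, whose ratio of 1.13 had an interval from 0.385 to 3.35. With pseudogenes left out *Krt18* moves up to a level between *Upk1b* and *Msln*. Over the 10 genes 64.1% of unambiguous tags in GC-1spg came from the site nearest the annotated end (63.1 to 65.1), and 94.5% in GC-2spd (ts) (89.8 to 97.5). The GC-1spg share is that of a pool in which *Upk3b* weighs heavily.

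RefSeq promoter windows (GRCm38.p6) were found for 6 of the 10 genes: *Upk3b*, *Krt7*, *Krt8*, *Krt18*, *Efemp1* and *Gpm6a*. The 250 bases before the start were searched on both strands for the AP-1 motif (TGANTCA), the Sp1 motif (GGGCGG), the TATA box with the letters TATAAA, the motif CCAAT, the E-box (CANNTG) and the TEAD motif (GGAATG). Windows are shown for *Upk3b* and *Efemp1*, the 2 genes whose window ends where the GENCODE gene starts, with every match in capitals.
Upk3b, chr5:136038246-136038495, plus strand: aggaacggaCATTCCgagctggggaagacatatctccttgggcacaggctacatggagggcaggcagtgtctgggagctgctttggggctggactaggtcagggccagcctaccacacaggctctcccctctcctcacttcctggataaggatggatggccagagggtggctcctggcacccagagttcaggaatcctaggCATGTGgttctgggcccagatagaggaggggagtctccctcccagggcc
Efemp1, chr11:28852955-28853204, plus strand: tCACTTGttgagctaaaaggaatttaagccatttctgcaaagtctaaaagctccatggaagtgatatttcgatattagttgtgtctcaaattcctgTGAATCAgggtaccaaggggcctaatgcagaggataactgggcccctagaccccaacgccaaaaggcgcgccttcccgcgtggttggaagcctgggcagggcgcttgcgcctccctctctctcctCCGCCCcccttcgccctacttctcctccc
*Upk3b* has 1 TEAD match, 241 bases before the start, and 1 E-box. *Efemp1* has 1 AP-1 match 154 bases and 1 Sp1 match 29 bases before the start, and 1 E-box. The *Krt7* window has 4 Sp1 matches. *Gpm6a* has 2 windows, with 1 TEAD match in the first and 1 TATA match in the other. Of 32851 mouse promoter windows of the same length, 12.6% held the TEAD letters, 6.75% AP-1, 32.7% Sp1 and 66.2% an E-box, and 12.4% held TATAAA. *Krt8* and *Krt18*, 23697 bases apart on chromosome 15, had no AP-1, Sp1 or TATA match. A match is a run of letters and not evidence of binding.

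Genes of the wider mesothelial list were compared next, with the 10 genes left out. The list was drawn up with earlier results of these libraries known, so its count is not independent of them. It holds 25 genes, of which 20 had tags. In GC-2spd (ts) 10 were called lower and none higher, against background shares of 7.84% and 11.7%, and the other 10 were not called. The median log2 ratio of the 12 with tags in both libraries was −1.71, beside 0.16 over all genes with tags in both. The summed level was 1164 TPM in GC-1spg against 432 TPM in GC-2spd (ts). *Wt1*, a transcription factor of mesothelium, podocytes and Sertoli cells, had 620 tags in GC-1spg against 0 in GC-2spd (ts), higher by at least 40.0-fold. *Pkhd1l1*, which encodes a large membrane protein, had 441 and 0 tags (at least 13.6-fold), and *Crb2*, an apical polarity gene, 168 and 0 (at least 17.1-fold). The list did not move as a whole: *Pdpn*, which encodes the mesothelial surface protein podoplanin, had 913 and 1139 tags and was not called. *Calb2* (calretinin), *Muc16* and *Aldh1a2*, also used to define mesothelium, had 0 tags in both libraries, as had *Dmkn* and *Fgf9*. In GC-1spg the mesothelial markers were thus met in part.

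Simple epithelial genes had few tags. Of 25 genes 9 had tags, none was called lower, and *Klf5* was called higher (59 and 127 tags, log2 1.21). With shared tags added in full 1 gene of this list was called lower, and *Lsr* then had 135 and 0 tags. *Epcam* and *Cdh1*, which define simple epithelia, and *Cldn3*, *Cldn4* and *Cldn7* had 0 tags in both libraries. Among 12 genes of desmosomes and keratin linkers *Jup* (398 and 76 tags), *Ppl* (146 and 5) and *Evpl* (37 and 0) were called lower and *Pkp2* (70 and 211) and *Eppk1* (13 and 43) higher. The *Jup* call was lost with shared tags added in full (1828 and 1592 tags, log2 −0.10). Among 13 genes of other intermediate filaments *Prph* (peripherin) had 2140 tags and 6 and was called lower, whereas *Vim* (vimentin) with 984 and 2897 and *Lmna* (lamin A/C) with 1343 and 3354 were called higher. Keratin genes other than the selected 4 summed to 1384 tags in GC-1spg and 79 in the other library.

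**Figure D3:**
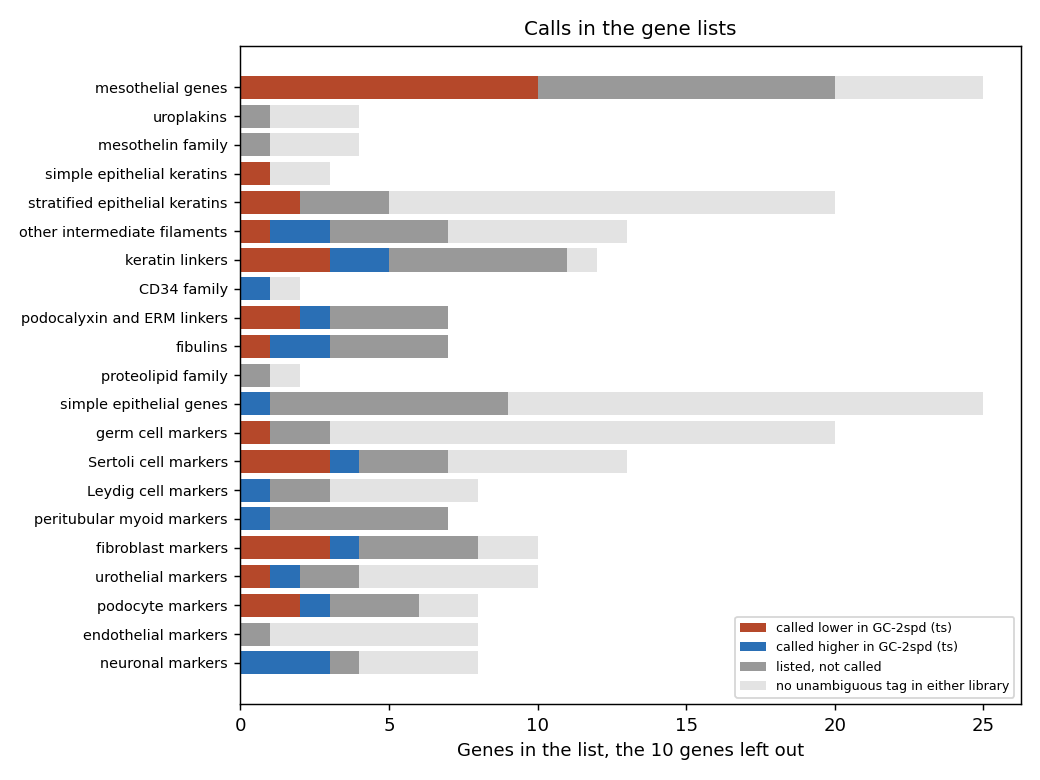
Number of genes in each list by call, with the 10 genes left out of the lists that contained them. Red is called lower and blue called higher in GC-2spd (ts), dark grey is listed and not called, and light grey is without an unambiguous tag in either library. The mesothelial list has 10 lower and 0 higher calls, and the simple epithelial, germ cell and endothelial lists are mostly without tags.

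Markers of other cell types, some of them also in the mesothelial list, differed between the libraries, and their part in the levels of the 10 genes was not tested. Of 13 Sertoli cell markers *Wt1*, *Trf* (445 and 0 tags) and *Dhh* (24 and 0) were called lower and *Gata4* (29 and 138) higher, with summed levels of 228 and 41.9 TPM. The *Trf* call was lost with shared tags added in full (1883 and 1516 tags, log2 −0.21). Of 10 fibroblast markers *Col1a1* (10465 and 2425), *Dcn* (710 and 2) and *Col6a1* (965 and 345) were called lower and *Col3a1* (50 and 120) higher, with summed levels of 3767 and 2088 TPM. Among podocyte markers *Wt1* was called lower and *Synpo* (49 and 109) higher. Of 10 urothelial markers *Krt14* was called lower and *Pparg* (2 and 57) higher, and 6 had 0 unambiguous tags in both libraries. The summed levels were 250 and 25.0 TPM, of which *Krt14* alone held 236 and 1.06 TPM.

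The remaining lists ran the other way or had few tags. *Nr5a1* (0 and 188 tags) was the called gene of 8 Leydig cell markers and *Acta2* (50 and 555) that of 7 peritubular myoid markers, and both were higher in GC-2spd (ts). The summed levels were 0.789 and 40.8 TPM for the Leydig list and 36.3 and 142 TPM for the myoid list. Of the germ cell markers *Uchl1* was called lower (329 and 66 tags). It made up most of the germ cell list, at 65.3 TPM in GC-1spg against 14.8 TPM in GC-2spd (ts). Of 8 endothelial markers none was called and 7 had 0 unambiguous tags.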

How the data were processed

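DGE tag libraries of GC-1spg and GC-2spd (ts), 1 of each, were analysed. The authors removed adaptor, low quality and single-copy tags and deposited each remaining tag with its raw count and its TPM (tags per 1000000 clean tags). No sample had replicates, so the quasi-likelihood test of edgeR and DESeq2 could not be fitted.

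Tags were matched to all CATG+17 tags of GENCODE M21 transcripts (GRCm38, 141767 transcripts) with at most 1 mismatch. Sense counts of tags belonging to 1 gene were summed and divided by all clean tags. Audic-Claverie p-values (two-sided) were adjusted by Benjamini-Hochberg over 14450 genes (FDR at most 0.001, absolute log2 ratio at least 1, 0.01 TPM for 0). Intervals are exact at 95% (Poisson for levels, conditional binomial for ratios and shares) and cover counting error only. A gene with 0 tags was limited by a 1-sided 95% Poisson bound. The bound allows as many unlisted copies as the gene had distinct tags in the other library. Each "at least" fold divides the GC-1spg level as counted by that limit, without the counting error of GC-1spg. TMM (edgeR 4.0.16, R 4.3.3) would shift log2 ratios by −0.17. Work was done in Python 3.11.15 (scipy 1.17.1, pandas 2.3.3, numpy 2.4.6, figures by matplotlib 3.10.9), and the calling was tested on simulated data.

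The 10 genes and the gene lists were chosen with earlier results of these data known. Text names all 10, other genes with tags in their families, called genes of the other lists (where more than 6 were called, for each direction the 3 genes of at least 20 tags whose log2 ratio was largest in size) and genes that share their tags. The defining markers at 0 and *Pdpn* and *Krt5* were added after their values were seen. Some list genes are not reported here.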

Additional observations from a re-analysis of the deposited data

Results flagged for a closer look

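Tags on the antisense strand were not used for the levels above, and 8 of the 10 genes had more of them in GC-1spg than in GC-2spd (ts). *Upk3b* had 262 antisense tags in GC-1spg against 0 in GC-2spd (ts), *Upk1b* 73 and 0, *Msln* 22 and 4, *Krt19* 94 and 0, *Podxl* 9 and 0, *Efemp1* 50 and 0, and *Gpm6a* 40 and 0. *Krt18* had 319 and 0. Its antisense tags outnumbered the 67 unambiguous sense tags. Set beside the 1576 sense tags counted with pseudogenes left out, they made up 16.8% of both strands. Pseudogenes were kept in the reference for these antisense tags. Of these 282 were copies of CATGgagttgctggagtccag, where capitals mark the *Nla*III site. Over the 10 genes antisense tags made up 8.83% of unambiguous tags on both strands in GC-1spg, beside 12.2% over all genes. *Krt7* and *Krt8* had 0 antisense tags. What gives rise to these tags was not tested.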

How the results depend on the processing

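No paired analysis was possible because each line had 1 library, and for the same reason no replicate could be left out. Across 11 alternatives none of 109 values of single genes among the 10 changed direction, and 11 moved. A value moved if it left the interval of the reported ratio, or, without an interval, shifted by more than 1. The 10 genes were selected for this direction, so the lack of a reversal is not a test. The log2 ratio of their summed level was −5.67 as reported, −5.05 from the last CATG site alone, and −1.72 with shared tags added in full, where the *Krt7* repeat tag dominates. The log2 *Krt8*/*Krt18* ratio in GC-1spg went from −3.07 to −7.62 with pseudogenes left out and −7.62 with shared tags added in full. The log2 *Krt7*/*Krt19* ratio turned from −8.21 to 1.89 with shared tags added in full. The last site alone gave no *Krt8*/*Krt18* value. Of the 10 genes 8 were called lower under the reported rule, 6 with the last site alone and 7 with edgeR's exact test at an assumed BCV of 0.4. The list genes besides the 10 counted 27 lower and 18 higher. edgeR's exact test gave 7 higher at an assumed BCV of 0.2, and 11 lower and 1 higher at 0.4. Over all genes it gave 489 lower and 511 higher at 0.2, and 136 lower and 108 higher at 0.4. Shared tags in full gave 2542 higher. The last site alone also ended the calls of *Upk3b*, *Krt18*, *Bnc1*, *Col1a1*, *Col3a1*, *Dhh*, *Acta2* and *Stmn2*, and the longest transcript alone those of *Vim*, *Cd34*, *Map2*, *Stmn2* and *Pkp2* (3 and 0 tags, the opposite direction). TMM scaling moved the share of higher calls among all calls from 59.8% to 47.2%. The mesothelial list had 10 lower calls, 8 at a BCV of 0.2 and 5 at 0.4. Low counts limit *Krt7*, *Krt8* and the GC-2spd (ts) values of *Efemp1* and *Gpm6a*.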
